A study of Homo sapiens with 8 samples.

Results

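The contacts of the human δ-globin gene *HBD* and of the stretch between it and the β-globin gene *HBB* are described here. The stretch, called the *HBD* window below, runs from the end of the *HBB* bait to the *HBD* transcription start site, chr11:5250202-5255712 on hg19 (GRCh37), and is 5511 bp long. A pair of ends was taken as a contact of the window when the midpoint of 1 end lay in the window and the other end lay elsewhere in chr11:5222301-5323175. By this rule 207 of 5276 distinct pairs were contacts of the window, 143 of 2966 WT pairs and 64 of 2310 BCL11A KO pairs. The name of the gene fits only in part. The *HBB*-*HBD* gap makes up 70.2% of the window (3866 bp), and the canonical *HBD* transcript, which reads on the minus strand, is 1646 bp long (chr11:5254068-5255713) and takes the rest, up to the base before its first.

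The pairs come from CAPTURE-3C-seq, in which a biotin-tagged dCas9 (CAPTURE2.0-CBio) and multiplexed sgRNAs pull down chosen DNA regions, the baits, together with the DNA ligated to them. The cells were HUDEP-2, an immortalised human erythroid precursor line with an adult-like globin pattern, either wild-type (WT) or with BCL11A knocked out (KO), and both carried the dCas9 and the sgRNAs. Per the labels the cells were kept in expansion medium with SCF, EPO, dexamethasone and doxycycline, whereas the study's methods add a step of erythroid differentiation before collection. Whether the knockout was 1 clone or several is not given in the sources used here. Each genotype is 1 merged library of 3 biological replicates, deposited as a list for each of 4 baits. Every test below thus compares 2 libraries and covers at most counting error, with pairs taken as independent. All p-values come from Fisher's test, exact and two-sided, and are adjusted by the Benjamini-Hochberg method over the whole family of tests named. The lists hold chromosome 11 alone, so the BCL11A gene itself could not be checked in them.

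*HBD* encodes the δ chain of the minor adult hemoglobin HbA2 and lies between *HBB* and the fetal genes *HBG1* and *HBG2*. The locus control region (LCR), a cluster of DNase hypersensitive sites HS1 to HS5 far upstream, is the shared enhancer of all the globin genes, and the genes are thought to compete for contact with it as the locus matures. BCL11A is the transcription factor that silences the fetal genes in adult erythroid cells, and the stretch just upstream of *HBD* holds sites it has been linked to.

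The 4 baits were *HBB*, the region upstream of *HBD* (the *HBD* upstream bait, with sites at 1, 2.5 and 3.5 kb before the start site), *HBG1/2* and the LCR. The middle site is drawn at 2.5 kb in the study's browser view and is named by another distance in the text on the sgRNAs. The *HBD* window was not a bait. Every listed pair had an end in a bait, so the partners that the window could show were limited to these 4 regions. No pair had both ends in the window. A pair is listed or not listed, with a Bayes factor (BF) score that stops at 150 and with no number of reads, so the measure throughout is the number of distinct pairs. Scores under 150 recurred across pairs: every KO contact of the window at HS2 had a score of 87. Pairs may thus have entered the lists in groups, and tests that take them as independent would then understate the counting error. This was not tested.

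Each end is a 42-bp stretch of the genome. The ends below are among those with the most distinct partners, and they are shown because they recur in the results on partners and position. All are on the plus strand of GRCh37, with any GATC in capitals. GATC is the sequence next to which ends piled up: of 5800 distinct ends in the series, 415 had a GATC precisely at an edge, and moving all ends by 1 to 4 bp left no more than 44. The first end lies in *HBD* exon 2, in coding sequence. The next pair lie in the gap. The last is a partner end in the *HBD* upstream bait. It lies 2.05 kb upstream of the start site, near the edge of the 1-kb stretch taken as the −2.5 kb site.
*HBD* exon 2, chr11:5255235-5255276: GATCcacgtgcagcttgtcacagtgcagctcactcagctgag
gap, chr11:5252847-5252888: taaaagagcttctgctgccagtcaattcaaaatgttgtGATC
gap, chr11:5252609-5252650: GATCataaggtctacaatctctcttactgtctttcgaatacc
*HBD* upstream bait, −2.5 kb site, chr11:5257743-5257784: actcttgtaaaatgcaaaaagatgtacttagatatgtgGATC

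The exon 2 end had 11 partners in WT and 3 in KO. In WT 8 of the 11 were in the *HBD* upstream bait, 2 in the LCR and 1 in *HBB*. The gap end at 2.85 kb downstream of the start site had 6 partners in WT and 5 in KO, and the gap end at 3.08 kb had 5 in each. A further end in exon 3, chr11:5254190-5254231, had 7 partners in WT and 1 in KO, and a gap end at 2.60 kb had 4 and 3, as many in KO as the exon 2 end. The 3 most used ends of each library held 24 of the 143 WT contacts and 13 of the 64 KO contacts, while 106 WT ends and 44 KO ends were used by a single pair. So most contacts of the window rested on ends seen once.

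The window held fewer pairs in KO than in WT, both in number and as a share of the library. It took 4.82% of the WT pairs (143 of 2966, Wilson 95% interval 4.11 to 5.65%) and 2.77% of the KO pairs (64 of 2310, 2.18 to 3.52%). The KO share was 0.575 times the WT share (exact p = 0.000141, adjusted p = 0.000423 over 9 regions of the locus). With ends at least 1 kb apart the ratio was 0.643 (exact adjusted p = 0.00670). With ends at least 5 kb apart it was 0.672, just under the threshold of 0.05 (exact adjusted p = 0.0488). It was 0.590 with each deposited line counted (exact adjusted p = 0.000740) and 0.477 with only the highest score (exact adjusted p = 8.57e-06). The exact Poisson 95% intervals of the main counts, 121 to 168 in WT and 49.3 to 81.7 in KO, did not overlap. These counts are not corrected for the size of the lists, 2966 and 2310 pairs, so the intervals add no support to the difference in share. A lower share in KO was not particular to the window: 5 of the 9 regions passed (55.6%), all of them lower in KO, with ratios of 0.639 for *HBB*, 0.365 for the *HBD* upstream region, 0.620 for the stretch that holds *HBBP1* and *BGLT3*, and 0.708 for the stretch that holds *HBE1*. In these shares a pair counts for a region where it joins it to another region of the locus. With 1 library per genotype, a difference between genotypes and a difference between libraries cannot be told apart.

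**Figure D1:**
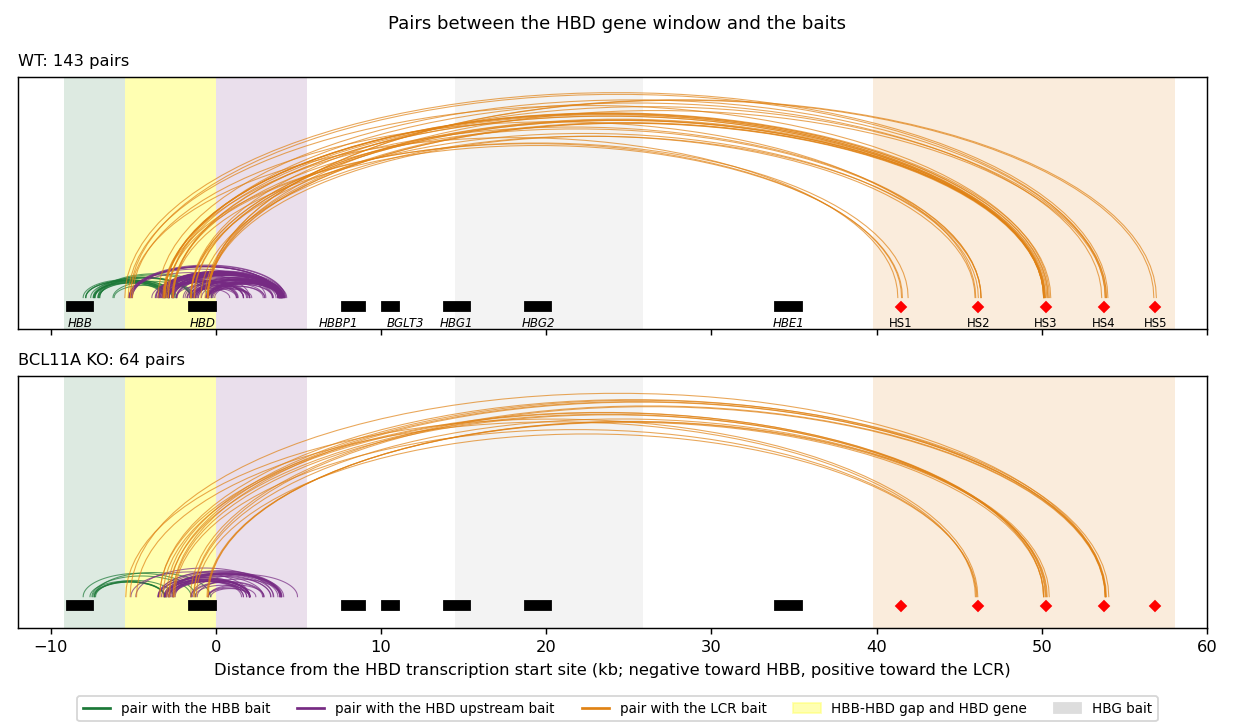
Every pair between the *HBD* window (yellow) and a bait, in WT (143 pairs, upper panel) and BCL11A KO (64 pairs, lower panel), drawn as an arc between its 2 ends against the distance in kb from the *HBD* start site. Green, purple and orange arcs end in the *HBB*, *HBD* upstream and LCR baits, black boxes are genes, red diamonds are hypersensitive sites, and no arc reaches the *HBG* bait in either panel.

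The partners were the same 3 baits in both libraries. The *HBD* upstream bait held 90 of the 143 WT contacts (62.9%) and 37 of the 64 KO contacts (57.8%). The LCR held 33 in WT (23.1%) and 19 in KO (29.7%), and *HBB* held 20 (14.0%) and 8 (12.5%). *HBG1/2*, which encode the fetal γ chains, held none in either. None of these proportions passed the test between libraries (exact adjusted p = 0.768 for the *HBD* upstream bait, 0.643 for the LCR and 1 for *HBB*, over 20 tests of all non-bait regions, of which 30.0% passed). The number of KO pairs over that of WT pairs was 0.411 for the *HBD* upstream bait, 0.576 for the LCR and 0.400 for *HBB*.

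Set against all pairs of the same bait, no partner passed. The *HBB* bait, which captures the adult β-globin gene, sent 20 of its 198 WT pairs to the window (10.1%, Wilson 95% interval 6.63 to 15.1%) and 8 of its 125 KO pairs (6.40%, 3.28 to 12.1%), and the intervals overlapped (exact adjusted p = 0.475). The *HBD* upstream bait sent 90 of 1786 WT pairs (5.04%, 4.12 to 6.15%) and 37 of 1013 KO pairs (3.65%, 2.66 to 4.99%), a ratio of 0.725 (exact adjusted p = 0.216). The LCR sent 33 of 1195 WT pairs (2.76%, 1.97 to 3.85%) and 19 of 1224 KO pairs (1.55%, 0.996 to 2.41%), a ratio of 0.562 (exact p = 0.0490, adjusted p = 0.105). All 3 were lower in KO. Of the 32 bait-by-region tests in the locus, 43.8% passed and 34.4% passed with a lower and 9.38% with a higher share in KO, against 0 of the 4 tests of the window, of which the one from *HBG*, with no pair, could not pass.

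The value for the *HBD* upstream bait turned with the denominator. Many pairs of this bait stayed inside it, 835 in WT and 745 in KO, while the pairs that left it fell from 951 to 268. Of the pairs that left, 9.46% ended in the window in WT and 13.8% in KO, a ratio of 1.46 (exact adjusted p = 0.122). Thus the window took a smaller share of all pairs of this bait in KO and a larger share of those that left it, and neither difference passed. The LCR value kept its direction (33 of 917 WT and 19 of 888 KO leaving pairs, exact adjusted p = 0.146), and every *HBB* pair left its bait.

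**Figure D2:**
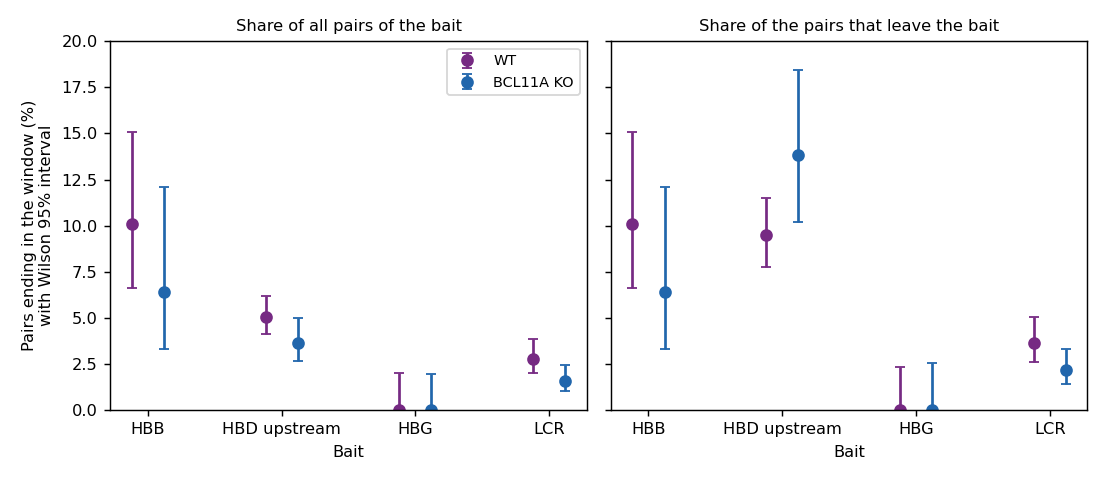
Share of the pairs of each bait that ended in the *HBD* window, in percent, for WT (purple) and BCL11A KO (blue). The Wilson 95% intervals cover at most counting error, with pairs taken as independent. Over all pairs of the bait (left) the *HBD* upstream value is 5.04% in WT and 3.65% in KO, and over pairs that leave the bait (right) it is 9.46% and 13.8%.

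The *HBG* bait showed no contact with the window. A pair of *HBG* with the window could be captured from the *HBG* end only. The list of that bait held 86 pairs in WT and 82 in KO, and a count of 0 allows a share of listed pairs of up to 3.49% and 3.66%, at a floor of 3 pairs. This takes pairs as independent and does not cover contacts under the score cut. Over all lists, which add *HBG* pairs captured from other baits, the bait had 186 and 193 pairs, and the limits would be 1.61% and 1.55%. In the *HBG* list alone, 28 WT and 5 KO pairs ended in the *HBD* upstream region on one side of the window, and 2 and 0 in *HBB* on the other. The shortest pair leaving the *HBG* bait was 5.44 kb long in WT and 14.5 kb in KO.

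The contacts of the *HBD* upstream bait with the window are given by the place of the bait's end, and the split between places was not tested between libraries. The −3.5 kb site, a 1-kb stretch, held 46 of the 90 WT contacts (51.1%) and 12 of the 37 KO contacts (32.4%). The −2.5 kb site held 8 in WT (8.89%) and 17 in KO (45.9%). The −1 kb site held 6 and 0, and 30 and 8 lay outside the sites. Most of these ends lay toward the edges of the 1-kb stretches: within 0.5-kb stretches around the same points there were 5 WT and 4 KO contacts at −3.5 kb, 0 and 1 at −2.5 kb, and 2 and 0 at −1 kb. The shares by site thus rest on the width chosen. A like split was present in all pairs that left this bait, whatever their other end: the −3.5 kb site held 52.6% of them in WT and 29.1% in KO, and the −2.5 kb site held 10.3% and 31.3%. Whether the window differed from the bait's other targets in this was tested only through the share of each site, given after the finer bins.

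In finer bins, 42 WT and 9 KO contacts began 3.5 to 4 kb upstream of *HBD*, 22 and 2 began at 4 to 4.5 kb, and 5 and 13 began at 2 to 2.5 kb. The single end at chr11:5257743-5257784, printed above, gave 8 of the 13 KO contacts of the last bin. It had 4 contacts in WT. This end was also the most used of the whole bait, with 312 pairs in WT and 363 in KO.

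Site by site, no change in the share sent to the window passed (0 of 8 at an adjusted p under 0.05 and 0 at an unadjusted p under 0.05, against 12.5% of the 64 site-by-region tests). The −3.5 kb site sent 46 of 808 WT pairs (5.69%) and 12 of 283 KO pairs (4.24%), and the −2.5 kb site sent 8 of 637 (1.26%) and 17 of 635 (2.68%, exact adjusted p = 0.220). Over pairs that left the bait, the −3.5 kb site turned, with 46 of 500 (9.20%) in WT and 12 of 78 (15.4%) in KO (exact adjusted p = 0.256). The −2.5 kb site then sent 8 of 98 (8.16%) and 17 of 84 (20.2%, exact adjusted p = 0.143). The −1 kb site sent 6 of 121 WT pairs (4.96%) and 0 of 28 KO pairs, which allows up to 10.7%, so a loss there was not detectable at this depth.

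**Figure D3:**
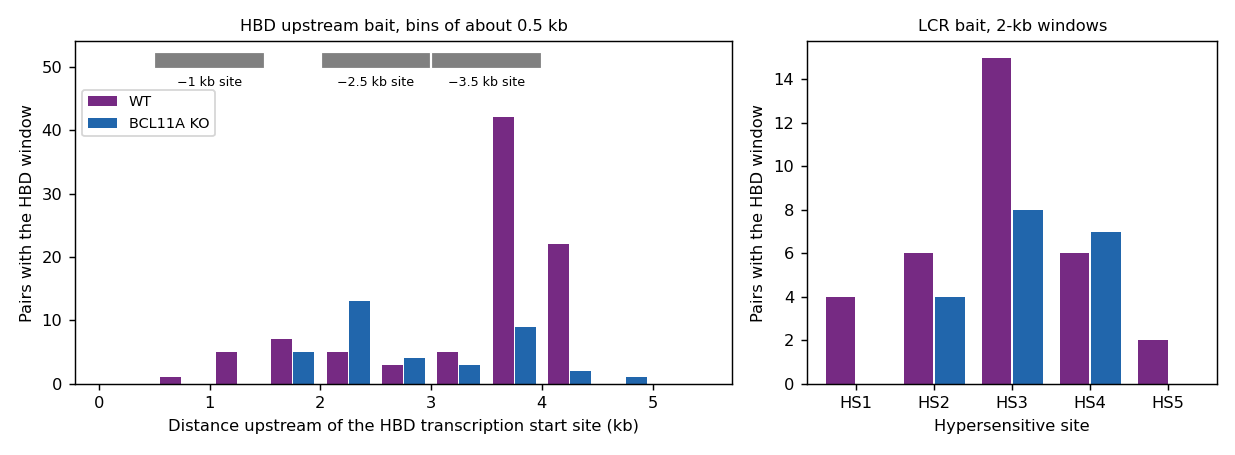
Number of pairs with the *HBD* window by the place of the partner end, in WT (purple) and BCL11A KO (blue). Left, the *HBD* upstream bait against the distance in kb from the *HBD* start site, with the 3 sites as grey bars: the tallest WT bar is 42 pairs at 3.5 to 4 kb and the tallest KO bar is 13 pairs at 2 to 2.5 kb. Right, the 5 hypersensitive sites, where HS3 has most pairs in both, 15 and 8.

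All LCR partners lay at hypersensitive sites. The 33 WT and 19 KO contacts fell inside the 2-kb windows around HS1 to HS5, which cover 54.7% of the bait, and 94.0% of all WT pairs and 98.6% of all KO pairs that left the LCR did so from these windows too. HS3 held more contacts of the window than any other site, 15 in WT (45.5%) and 8 in KO (42.1%), beside 42.5% and 48.8% of all pairs that left the LCR. HS2, a classical enhancer of the LCR, held 6 and 4, and HS4 held 6 and 7. HS1 held 4 in WT and HS5 held 2, and neither held any in KO.

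As a share of its own pairs, HS3 sent 2.64% to the window in WT (15 of 568) and 1.15% in KO (8 of 693), with overlapping intervals of 1.61 to 4.31% and 0.586 to 2.26% (exact p = 0.0577, adjusted p = 0.207). HS4 sent 1.69% (6 of 356) and 1.62% (7 of 433), and HS2 sent 3.26% (6 of 184) and 2.38% (4 of 168). For HS1 the WT share was 2.94% (4 of 136), and 0 of 53 KO pairs allows up to 5.66%. For HS5 it was 2 of 48 in WT, and 0 of 31 in KO allows up to 9.68%. Absence from HS1 and HS5 in KO was thus within what the number of listed pairs allows, with pairs taken as independent. Contacts under the score cut are not covered by these limits.

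The *HBB* partners lay around the *HBB* start site. Of the 20 WT and 8 KO contacts, 10 and 7 had their *HBB* end in chr11:5248088-5248615, which holds the start of the *HBB* transcript at 5248301. In WT 4 more lay just inside the gene and 6 upstream of it, and in KO 1 lay inside. The shortest pair of the *HBB* bait with any region was 3.52 kb long in WT and 3.66 kb in KO, and its median distance to the window was 4.91 kb and 4.63 kb.

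Within the window the contacts were unevenly spread, and the same 2 bins were highest in both libraries. In 11 equal bins of 501 bp, the 2 bins at 2.51 to 3.51 kb downstream of the *HBD* start site, in the gap (chr11:5252206-5253207), held 57 of 143 WT contacts (39.9%) and 38 of 64 KO contacts (59.4%). They had 29 and 28 pairs in WT and 19 and 19 in KO, the most of any bin in each library. The bin across the border of exon 3 and intron 2 had 24 and 10, and the bin at the start, with exons 1 and 2, had 20 and 7. The bin from 4.01 to 4.51 kb had no pair in either library, and its neighbour toward *HBB* had 0 in WT and 2 in KO. All 11 bins had at least as many pairs in WT as in KO except that one.

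Tested per bait, 0 of 18 bins of the window passed (lowest exact p = 0.0537, adjusted p = 0.271), 0 had an unadjusted p under 0.05, 15 were lower in KO and 3 higher. Over pairs that leave the bait, 0 of 18 passed as well, with a lowest exact adjusted p of 0.0732. Across the locus 3.89% of 180 bins passed, 2.78% lower in KO and 1.11% higher.

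**Figure D4:**
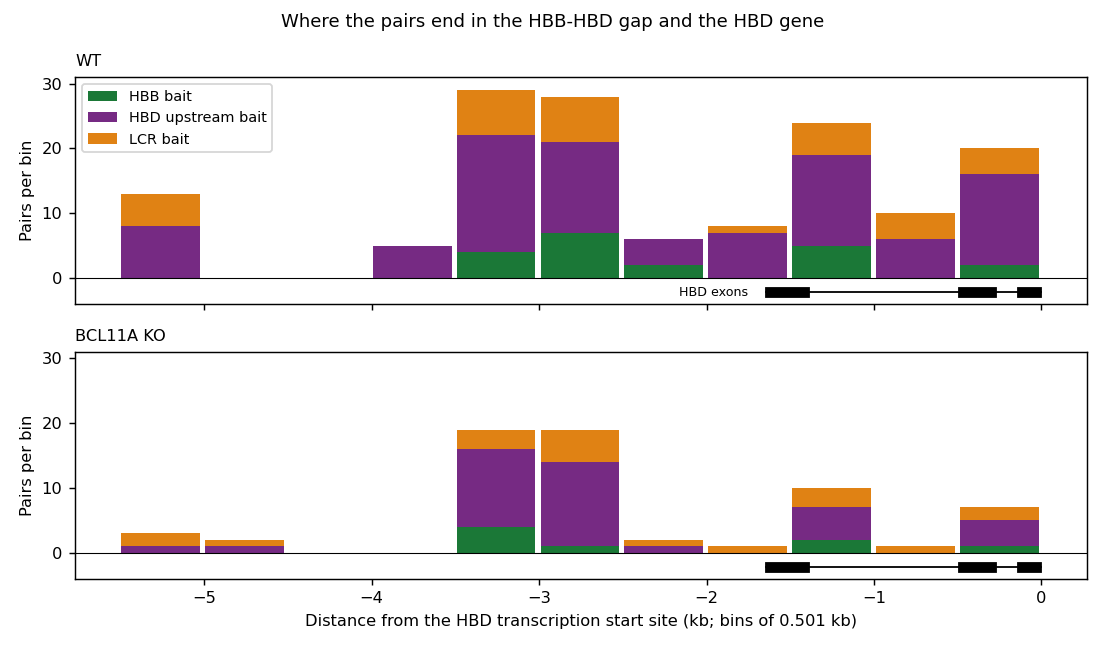
Number of pairs that ended in each of 11 bins of 501 bp along the *HBD* window, stacked by the bait of the partner (green *HBB*, purple *HBD* upstream, orange LCR), for WT (above) and BCL11A KO (below), against the distance in kb from the *HBD* start site. Black boxes are the *HBD* exons, and the 2 tallest bins in each panel (29 and 28 pairs in WT, 19 and 19 in KO) lie in the gap between *HBB* and *HBD*.

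The ends of the contacts lay near GATC. The window holds 10 GATC, 5 of them in the 2 tallest bins and none in the 2 bins with 0 WT pairs. The 3 other bins without a GATC had 5, 6 and 10 WT pairs and 0, 2 and 1 KO pairs, and the 10 exceed the 8 WT pairs of a bin with 1 GATC. The 154 distinct window ends lay at a median of 40 bp from the nearest GATC and 92.9% lay within 200 bp, whereas over all 42-bp stretches of the window the median was 159 bp and the share 57.0%. An end began or stopped exactly at a GATC in 13 of 154 cases (8.44%, against 0.363% of all stretches), and 28 held a GATC (18.2%, against 7.08%). All the sequences printed above have their GATC at an edge. The part of the fragment map in the profile of contacts was not tested.

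By annotation, the gene held more pairs per kb than the gap in WT, and in KO the values were nearly equal. In WT 57 contacts (39.9%) ended in the *HBD* transcript and 86 in the gap, or 34.6 and 22.2 per kb. In KO 19 (29.7%) ended in the transcript and 45 in the gap, or 11.5 and 11.6 per kb. The split between gene and gap did not pass between libraries, over all contacts (exact adjusted p = 0.530 over 5 tests) or for any bait. The widest difference was in the *HBD* upstream bait, where 36 of 90 WT contacts and 9 of 37 KO contacts ended in the gene (exact p = 0.106, adjusted p = 0.530). For the LCR it was 14 of 33 and 7 of 19, and for *HBB* 7 of 20 and 3 of 8. Taken alone, the gene received 36 of 1786 WT pairs and 9 of 1013 KO pairs of the *HBD* upstream bait, 2.02% and 0.888% (exact adjusted p = 0.0585), and the gap received 54 and 28, 3.02% and 2.76% (exact adjusted p = 0.852).

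Intron 2, the long intron of *HBD*, held 26 WT and 7 KO contacts. With the *HBD* upstream bait it had 17 and 2, and with the LCR 8 and 4. Exon 2 held 13 and 7, and exon 3 held 13 and 5. Intron 1 held 4 and 0, and exon 1, the first 142 bp of the gene, held 1 and 0. Per kb the order in WT was exon 2 (58.3), exon 3 (51.0), intron 1 (31.2), intron 2 (29.0) and exon 1 (7.04), and the 2 highest features each hold 1 of the much used ends, at a GATC. These counts are too small to order the features beyond counting error, and they were not tested one by one.

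*HBD* and *HBB* are close paralogs, so a read of one may be placed on the other. The exon 2 end printed above differs from its best match in *HBB*, chr11:5247821-5247862, at 4 of 42 positions, and the exon 3 end at 5. Of 56 distinct ends in the transcript, 8 had at most 3 mismatches to *HBB*, carrying 3 WT and 5 KO contacts, and none had 0. The 98 ends in the gap had at least 17. Of all 42-bp stretches in the window 1.13% occur again in the genome, 3.76% in the transcript and 0.0260% in the gap, and none of the 153 window ends that lie wholly inside the window sits at such a stretch. Only reads with 1 alignment in hg19 were kept. The lack of ends at repeated stretches or with 0 mismatches was thus largely set by that filter and does not bear on misplaced reads. None of the 7 WT and 3 KO contacts between the transcript and the *HBB* bait joined an end to its own matching stretch of *HBB* within 50 bp. The stretch of *HBB* that matches the exon 2 end was itself the *HBB* end with most contacts, 3 in WT and 0 in KO, all with ends in the gap. How sequence differences between the copies bear on the gene's counts beyond this was not tested.

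**Figure D5:**
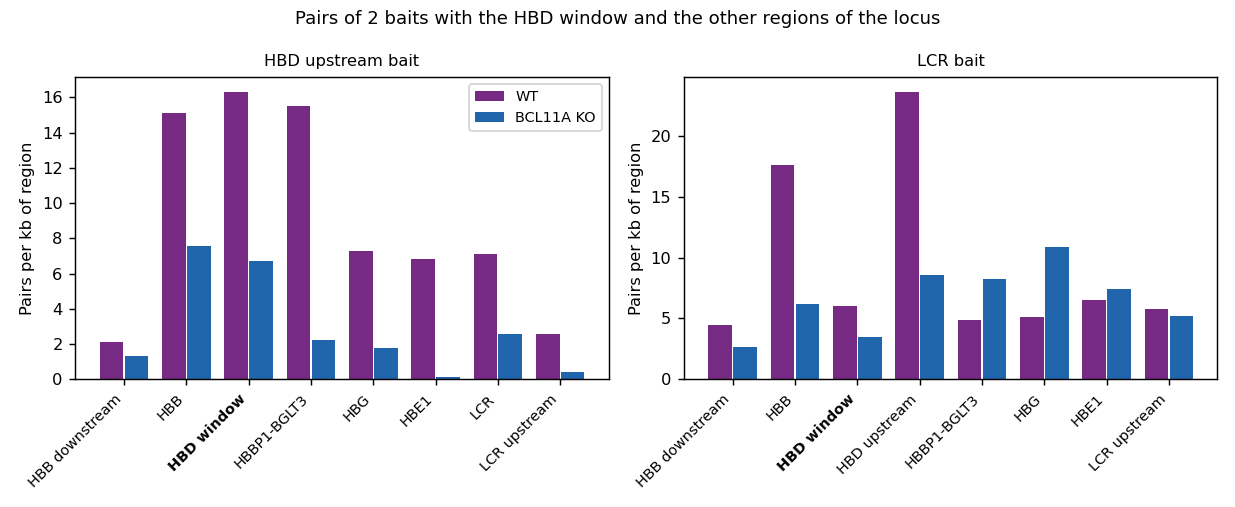
Pairs per kb of each region of the locus, in order from *HBB* toward the LCR, for the *HBD* upstream bait (left) and the LCR bait (right), in WT (purple) and BCL11A KO (blue). From the *HBD* upstream bait the *HBD* window falls from 16.3 to 6.71 pairs per kb and *HBBP1*-*BGLT3* from 15.5 to 2.23, and from the LCR the window goes from 5.99 to 3.45 while *HBG* goes from 5.09 to 10.9.

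Compared with other regions, the window was set apart in 4 of 28 tests (14.3%), from 2 baits. The 7 tests from the *HBG* bait, with no window pair, could not pass, which leaves 21. From the *HBD* upstream bait, the window went from 90 to 37 pairs, while the stretch on the other side of the bait, with the pseudogene *HBBP1* and the noncoding RNA gene *BGLT3*, went from 139 to 20. Per kb, the first went from 16.3 to 6.71 and the second from 15.5 to 2.23. The KO-to-WT ratio of the window was 2.86 times that of *HBBP1*-*BGLT3* (exact adjusted p = 0.00549). With the latter cut to the length of the window next to the bait, a choice made after the data were seen, it went from 108 to 14 (3.17 times, exact adjusted p = 0.00513). With only ends at least 5 kb apart, the counts were 53 and 22 against 101 and 19, and the difference no longer passed (2.21 times, exact adjusted p = 0.170). Against the embryonic gene *HBE1* and its surroundings, 95 pairs in WT and 2 in KO, the number of window pairs fell less (exact adjusted p = 5.12e-07), the KO count there being under the floor of 3 pairs. The other 5 comparisons from this bait did not pass. *HBB* went from 56 to 28 pairs (exact adjusted p = 1 against the window). The KO-to-WT ratio, 0.411 for the window, was 0.627 for the stretch downstream of *HBB*, 0.362 for the LCR, 0.241 for *HBG1/2* and 0.167 for the stretch beyond the LCR (exact adjusted p = 0.451, 1, 0.375 and 0.451).

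From the LCR the window stood on the other side. It went from 33 to 19 pairs, while *HBG1/2* went from 58 to 124 and *HBBP1*-*BGLT3* from 44 to 74. The KO-to-WT ratio of the window was 0.269 times that of *HBG1/2* (exact adjusted p = 0.00116) and 0.342 times that of *HBBP1*-*BGLT3* (exact adjusted p = 0.0171). Against *HBB*, which went from 65 to 23, and the *HBD* upstream region, from 130 to 47, no difference passed (ratios of 1.63 and 1.59, exact adjusted p = 0.543 and 0.451). The stretch downstream of *HBB* went from 108 to 64, and the window's ratio was 0.972 times its own (exact adjusted p = 1). The stretch with *HBE1* went from 91 to 103 and the stretch beyond the LCR from 54 to 49. The window's ratio was 0.509 and 0.635 times theirs, and neither passed (exact adjusted p = 0.236 and 0.539). The differences were thus from particular regions and not from all. In level, the LCR had 5.99 pairs per kb with the window in WT, under the 17.6 with *HBB* and the 23.6 with the *HBD* upstream region that flank it. In KO these values were 3.45, 6.21 and 8.54. The flanking regions are baits, so their LCR pairs could be captured from both ends and those of the window from the LCR end only, and these levels were not tested against each other. The *HBB* bait gave the window 3.63 pairs per kb in WT and 1.45 in KO, and from this bait 0 of 7 comparisons with other regions passed.

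Over the 4 baits and both libraries, 8 values of pairs per kb in all, the non-bait region most like the window was the stretch downstream of *HBB* (Spearman's rho 0.711), followed closely by *HBBP1*-*BGLT3* (0.707). By Pearson's r the order turned, 0.461 and 0.866. The 8 values share their libraries and baits, so these are descriptions only.

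The contacts of the 2 libraries were mostly different pairs. Of 143 WT and 64 KO pairs, 1 was in both, 0.699% and 1.56%, beside 3 of 657 WT and 381 KO pairs (0.457% and 0.787%) that joined a bait to the other non-bait regions of the locus. Over the whole series, where most shared pairs lay inside 1 bait, 380 pairs were in both libraries, and 11 of these were not inside a bait. At the level of single ends, 9 window ends were in both libraries, of 113 in WT (7.96%) and 50 in KO (18.0%), and 7 partner ends, of 127 and 56. The share over all ends of the series was not computed, so whether these values are particular to the window is not known. All contacts were over 2 kb long, from 2.51 kb in WT and 2.34 kb in KO up to 59.5 and 59.1 kb.

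Fewer of the KO contacts reached the top score, a difference that was not tested. The top score of 150 was reached by 134 of 143 WT contacts (93.7%) and 49 of 64 KO contacts (76.6%), against 89.7% and 88.3% of all pairs. For LCR contacts it was 87.9% and 57.9%, for *HBD* upstream contacts 94.4% and 89.2%, and for *HBB* contacts 100% and 62.5%. Over all pairs of the same baits the shares were 87.4% and 83.3% for the LCR, 91.7% and 96.1% for *HBD* upstream, and 98.0% and 77.6% for *HBB*. All 4 KO contacts at HS2 had a score of 87, and the 6 in WT had 150. A filter on the top score therefore took more contacts from KO than from WT, leaving 29 of the 33 WT and 11 of the 19 KO contacts of the LCR. The score was computed by the study's software for each merged library, and its dependence on depth was not tested.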

How the data were processed

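Contacts of 4 bait regions were measured by CAPTURE-3C-seq in HUDEP-2 cells, WT and BCL11A KO. Per the labels and methods, only reads with 1 alignment in hg19 were kept (Bowtie2 2.2.8 and Picard are named in the submitters' processing notes), 3 biological replicates per genotype were merged, interactions were scored with MAXIM, and those with a BF of at least 20 were retained. The deposited values are positions of both 42-bp ends and the BF score, which the authors computed. No read number is given, so read depth is unknown. The restriction enzyme is not given in the sources used here. The 6 samples that are single replicates have no list here and were not analysed.

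The 6390 WT and 4844 KO lines were collapsed over mirrored and repeated lines to 2966 and 2310 distinct pairs. An end was assigned by its midpoint. Baits and sites were read from the study's browser view as distances from start sites and placed with GENCODE release 44 transcripts on GRCh37. Fisher's test (exact, two-sided) was used between libraries, with p-values adjusted by Benjamini-Hochberg within each whole family, a threshold of 0.05, Wilson or exact Poisson 95% intervals and a floor of 3 pairs (Python 3.11.15, scipy 1.17.1, pandas 2.3.3). The tests of bait shares, bins and other regions were run on simulated lists, drawn as independent pairs from the WT list. Such lists hold no spread between replicates and no grouping of pairs, so they do not bear on either. Named were the baits, sites, gene parts, the fullest bins, the 3 window ends with most partners in each library, the partner end with most contacts in each library (that of WT is not reported here) and the most similar region. The contacts, lists and tests were chosen with earlier results of these data known.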

Additional observations from a re-analysis of the deposited data

How the results depend on the processing

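With 1 merged library per genotype there is no spread between replicates, and counts under about 10 pairs limit most single sites and bins. Of 124 repeats under other settings, 26 held the same pairs as the main value and could not move; of the other 98, 88 kept their direction and side of the threshold, or for counts of calls stayed within 1.5 times (4 tests of the window against other regions passed, 5 at the top score, 3 at 5 kb). The share of *HBD* upstream pairs that ended in the window, 0.725 in KO relative to WT, turned to 1.46 over pairs that leave the bait, to 1.496 with ends at least 1 kb apart (adjusted p = 0.0929), to 1.44 with ends at least 5 kb apart and to 1.29 with ends merged in 0.1-kb bins, all by Fisher's exact test and none past the threshold. With the top score alone, a filter that took 4 of 33 WT and 8 of 19 KO contacts of the LCR, the LCR share passed (0.389), the part of the *HBD* upstream bait among the contacts turned to 1.06, and the *HBB* contacts in the gene went from 7 of 20 to 0 of 5, a ratio of 0. For the −3.5 kb site the ratio turned from 0.745 to 1.05 in a narrower site window of 0.5 kb and to 1.67 over leaving pairs. The window against *HBBP1*-*BGLT3* lost its call at 5 kb (2.21). The window's share of all pairs kept its call there, close to the threshold (0.672, exact adjusted p = 0.0488). The causes were not tested. In the narrower window the −3.5 kb site held 5 and 4 contacts in WT and KO and the −2.5 kb site 0 and 1, which gave no ratio. Leaving out the most used ends, or cutting *HBBP1*-*BGLT3* to the window's length, was chosen after seeing the data and changed no call. No paired analysis was possible because only the merged library of each genotype holds values here.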
